A study of Mus musculus with 12 samples.

Results

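The insulin-like growth factor (IGF) system genes described here are the ligand Igf1, the receptors Igf1r and Igf2r, and the binding protein genes Igfbp2 to Igfbp7, chosen by name. The deposited values list 14159 genes, and 8 of the 9 chosen genes were among them. Igfbp2 was not analysed here. Polyadenylated RNA of whole inguinal white adipose tissue (iWAT) was sequenced from 12 mouse libraries in 4 groups of 3 biological replicates, numbered 0, 1 and 2. Atf4AKO mice carry the floxed Atf4 alleles together with Adipoq-Cre, which is active in adipocytes, so that the other cells of the tissue keep Atf4. Atf4WT mice are littermates with the same floxed alleles and no Cre, on a C57BL/6 background. Mice of each genotype stayed at room temperature (RT, 22 °C) or were exposed to 5 °C for 24 h, and the sources used here do not give the age of the sequenced mice. The study asked how ATF4, a transcription factor of the integrated stress response, acts in iWAT during browning.

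IGF1 is a peptide hormone that liver and many other tissues secrete under growth hormone, and adipose tissue is one of its sources. It acts through IGF1R, a receptor tyrosine kinase that signals to IRS proteins, AKT and mTOR. IGF2R, also known as the cation-independent mannose 6-phosphate receptor, takes up IGF2 for breakdown and sorts lysosomal enzymes. The IGF binding proteins hold IGFs outside cells and set how much ligand reaches the receptors, and proteases such as PAPPA release the ligand by cutting them. IGF signaling is known in white fat for its role in the differentiation of adipocyte precursors.

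The 12 libraries held 25719476 to 29105147 reads on the listed genes. Atf4 itself was at 5669, 4670 and 4107 normalized counts (reads divided by the size factor of the library) in Atf4WT iWAT at RT and at 1594, 1470 and 1639 in Atf4AKO iWAT at RT. After cold exposure it was at 7644, 7511 and 5756 in Atf4WT and at 1578, 788 and 1180 in Atf4AKO iWAT, so the genotypes did not overlap at either temperature. Ucp1, the uncoupling protein of thermogenic adipocytes, rose from 443 ± 241 to 81029 ± 11913 normalized counts in Atf4WT iWAT and from 612 ± 426 to 97153 ± 20017 in Atf4AKO iWAT (mean ± SD, n = 3). The adipocyte marker Fabp4 was at 314385 or more in all 12 libraries. Some libraries stood apart in the markers of other cells. The mean log2 value of the 5 listed skeletal muscle markers was 12.42 in Atf4WT RT replicate 2, 10.95 in Atf4WT cold replicate 0, 7.80 in Atf4AKO cold replicate 1 and 5.51 or less in the other libraries. The 10 B cell and 11 T cell markers were all lower in Atf4AKO than in Atf4WT iWAT after cold exposure, with median log2 differences of -5.73 and -3.63. Replicate 1 of each cold group was low in fibroblast and macrophage markers, which is given below with Igfbp5 and Igfbp6.

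The promoter sequences of the 4 genes whose cold responses are described at most length are shown so that the start regions of genes that moved in different ways can be compared. Each is a 300 base window from 250 bases before to 50 bases after a RefSeq start site of GRCm38.p6 (mm10), printed 5′ to 3′ on the strand of the gene. All 8 genes matched the RefSeq promoter table. Capitals mark matches on either strand to 5 motifs, which may overlap, and stretches in lower case hold none. The motifs were the cAMP response element half-site TGACG (in 20.8% of 32851 promoters of this length), the ATF4 composite site TGATGNAA (3.97%), the GC box GGGCGG (35.7%), the TATA element TATANA (24.7%) and the E-box CACGTG (7.15%).
Igfbp3, chr11:7213874-7214173, minus strand: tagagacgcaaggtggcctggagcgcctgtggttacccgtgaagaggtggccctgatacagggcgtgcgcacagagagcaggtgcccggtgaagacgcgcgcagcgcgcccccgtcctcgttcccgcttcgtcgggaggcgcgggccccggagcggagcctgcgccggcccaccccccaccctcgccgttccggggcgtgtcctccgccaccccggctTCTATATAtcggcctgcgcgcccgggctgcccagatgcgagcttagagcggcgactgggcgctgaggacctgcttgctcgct
Igf2r, chr17:12769657-12769956, minus strand: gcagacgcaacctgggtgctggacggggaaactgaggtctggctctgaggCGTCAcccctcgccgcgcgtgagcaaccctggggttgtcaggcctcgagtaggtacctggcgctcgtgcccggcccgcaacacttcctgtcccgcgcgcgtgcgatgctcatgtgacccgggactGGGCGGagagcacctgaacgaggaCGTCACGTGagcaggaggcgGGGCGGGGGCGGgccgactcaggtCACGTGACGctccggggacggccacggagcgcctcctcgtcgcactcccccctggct
Igfbp5, chr1:72874816-72875115, minus strand: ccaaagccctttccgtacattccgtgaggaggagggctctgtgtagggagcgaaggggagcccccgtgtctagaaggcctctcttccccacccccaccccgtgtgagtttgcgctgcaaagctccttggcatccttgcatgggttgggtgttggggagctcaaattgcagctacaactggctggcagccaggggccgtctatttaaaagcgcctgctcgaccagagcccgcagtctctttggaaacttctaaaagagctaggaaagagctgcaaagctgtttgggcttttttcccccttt
Igfbp6, chr15:102143936-102144235, plus strand: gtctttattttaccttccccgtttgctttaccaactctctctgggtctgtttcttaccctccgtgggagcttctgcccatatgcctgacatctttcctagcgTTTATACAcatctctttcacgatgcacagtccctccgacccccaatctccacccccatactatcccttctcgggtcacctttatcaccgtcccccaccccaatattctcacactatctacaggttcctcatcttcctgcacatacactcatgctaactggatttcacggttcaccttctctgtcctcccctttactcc

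The windows differed in base composition and motif content. The Igfbp3 window was 71.7% G and C, with 37 CpG dinucleotides and 2 overlapping TATA element matches, and the Igf2r window was 70.7% G and C with 34 CpG dinucleotides. Igf2r had 3 half-site matches, 3 GC boxes and 2 E-boxes, and half-site matches overlapped both E-boxes. The Igfbp6 window was 49.7% G and C with 2 TATA element matches, and the Igfbp5 window, at 56.3%, held no match to any of the 5 motifs. The Igfbp6 window ends at 102144235, before the annotated start of the gene at 102144362, and so does not cover that start. Nor do the windows of Igf1 and Igf1r cover the annotated starts of their genes. Distances of the motifs from the start sites were not compared. The median of all promoters was 52.7%. Among the other members Igfbp7 had 4 GC boxes, Igf1r had 2, Igfbp4 had 1 TATA element and Igf1 had no match. None of the 8 windows held the letters of the composite site, which says only that these letters are not in this stretch.

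Levels of the genes were compared as normalized counts per kilobase of the union of exons (GENCODE vM21). Igfbp7, a binding protein of low IGF affinity found around vessels, was the highest, with a mean over the 12 libraries of 7537 (5238 to 10346). Igfbp4 followed at 4805 (4160 to 5292), Igfbp6 at 2947 (576 to 4384) and Igfbp5 at 2018 (463 to 3231). Igf1 was at 683 (463 to 987), Igfbp3 at 418 (182 to 653), Igf2r at 234 (192 to 280). Igf2, the other IGF ligand, was at 35.5 (18.4 to 53.7), and Igf1r was the lowest at 30.9 (21.7 to 36.9). The ranges of neighbours in this order, pooled over the libraries, overlapped except those of Igf2r and Igf2. Within each of the 12 libraries, Igfbp7 lay above Igfbp4, Igfbp4 above Igfbp6 and Igfbp6 above Igfbp5. The order rests on the length used for Igf1, which has long and short transcripts. With the length of the listed RefSeq transcript Igf1 was at 4862 (3299 to 7030), in the third place after Igfbp7 and Igfbp4, and Igf2 at 312 lay above Igf2r at 245.

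The genes lie on 7 chromosomes (GRCm38): Igf1 on chromosome 10 from 87858265 to 87937042, Igf1r on chromosome 7 from 67952827 to 68233668, Igf2r on chromosome 17 from 12682406 to 12769664, and Igfbp3 and Igfbp4 on chromosome 11 from 7206086 to 7213923 and from 99041244 to 99054392. Igfbp5 lies on chromosome 1 from 72857932 to 72874884, Igfbp6 on chromosome 15 from 102144362 to 102149511 and Igfbp7 on chromosome 5 from 77349240 to 77408041. Igf2r overlaps the antisense transcript Airn, Igf1 overlaps Igf1os, and Igfbp7 overlaps Gm34648 and the end of Polr2b on the opposite strand. The authors used a strand-specific library kit. The strand setting of the counting is not stated, so whether reads of these overlapping genes were told apart is not known.

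After cold exposure Igfbp3 rose about 2-fold in both genotypes, Igf2r and Igfbp7 were lower by less than 1.5-fold, and Igf1, Igf1r and Igfbp4 showed no difference past a threshold. Igfbp5 and Igfbp6 had lower means and did not pass. A gene was called differentially expressed (DEG) when limma gave it more than a 1.5-fold change with a p-value, before adjustment, under 0.05. The adjusted p-values given beside the calls are Benjamini-Hochberg values over 13404 tested genes. Igfbp3 was the 1 member of 8 that passed in Atf4WT iWAT and the 1 that passed in Atf4AKO iWAT, where 21.2% and 17.2% of all tested genes passed (10.9% and 8.30% as higher, 10.3% and 8.92% as lower). At an adjusted p-value under 0.05 without a fold limit 1 member was higher and 2 were lower in each genotype, against 31.9% of all genes in Atf4WT (17.0% higher, 14.9% lower) and 25.9% in Atf4AKO iWAT (14.8% higher, 11.0% lower). In each genotype 4 of 8 members did not overlap between cold and RT (46.8% and 41.7% of all genes). The median log2 difference of the 8 members was -0.32 in Atf4WT and -0.24 in Atf4AKO iWAT, against 0.0026 and -0.032 for all tested genes.

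**Figure D1:**
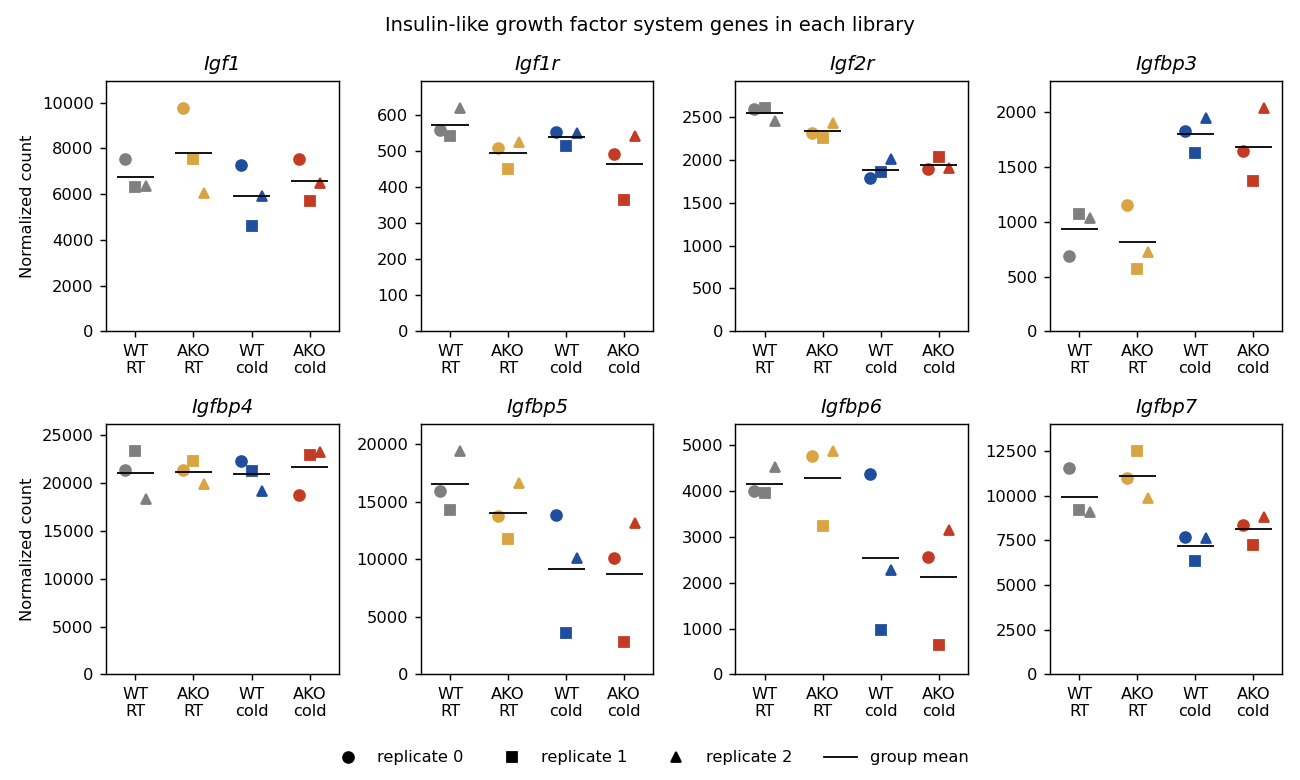
Normalized counts (vertical axes, each from 0) of the 8 listed genes in the 12 libraries by group, with the replicate number as the marker shape and the group mean as a line. Igfbp3 lies higher in all cold than in all RT libraries, Igf2r and Igfbp7 lie lower, and replicate 1 of each cold group lies far below the others for Igfbp5 and Igfbp6.

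Among the binding proteins, Igfbp3 encodes the main IGF carrier of the blood, which is also made in many tissues. It was at 690, 1069 and 1036 normalized counts in Atf4WT iWAT at RT and at 1833, 1632 and 1952 after cold exposure. In Atf4AKO iWAT it was at 1153, 569 and 720 at RT and at 1649, 1370 and 2043 after cold exposure. All 6 cold libraries lay above all 6 RT libraries. The log2 fold change with cold was 0.98 in Atf4WT (SE 0.25, adjusted p = 0.0129 by limma) and 1.10 in Atf4AKO iWAT (SE 0.25, adjusted p = 0.0089 by limma). The difference between these responses was 0.12 on the log2 scale (95% confidence interval -0.66 to 0.89) and did not pass. Without replicate 1 of both cold groups the log2 fold changes were 1.05 and 1.24. In Atf4WT iWAT the call was lost with a lymphocyte score, the mean log2 value of the B and T cell markers, as a covariate (log2 fold change 0.62, adjusted p = 0.342 by limma). The B and T cell markers were called higher with cold in this genotype, 10 of 10 and 11 of 11. The score thus rose with cold, and this fit cannot separate the cold response from a change shared with these markers. Without Atf4WT RT replicate 0, the lowest of its group, the log2 fold change was 0.77 and the adjusted p was 0.0535 by limma.

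Igfbp7 was at 11532, 9208 and 9121 normalized counts in Atf4WT iWAT at RT and at 7679, 6333 and 7633 after cold exposure. In Atf4AKO iWAT the values were 10983, 12508 and 9896 at RT and 8394, 7264 and 8796 after cold exposure. All cold libraries lay below all RT libraries. The log2 fold changes were -0.46 (SE 0.13, adjusted p = 0.0194 by limma) and -0.45 (SE 0.13, adjusted p = 0.0264 by limma), both smaller than 1.5-fold. The adjusted p-value stayed under 0.05 in 12 of 17 alternative settings in each genotype. The value was nearest to 0 at -0.29 in Atf4WT iWAT with the lymphocyte score as a covariate (adjusted p = 0.383 by limma) and at -0.30 in Atf4AKO iWAT with a fibroblast score made in the same way (adjusted p = 0.231 by limma), and without replicate 1 of both cold groups the adjusted p-values were 0.0696 and 0.0892 by limma.

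Igfbp4, which encodes a binding protein that restrains IGF action and is cut by PAPPA, was the steadiest member. It ranged from 18371 to 23371 normalized counts over all 12 libraries, a ratio of 1.27 between the highest and the lowest. The log2 fold change with cold was -0.0036 in Atf4WT (95% confidence interval -0.27 to 0.26) and 0.025 in Atf4AKO iWAT (-0.24 to 0.29), so both intervals lay inside a 1.5-fold change in either direction.

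Of the receptors, Igf2r was at 2595, 2609 and 2452 normalized counts in Atf4WT iWAT at RT and at 1785, 1864 and 2006 after cold exposure. Atf4AKO iWAT had 2316, 2253 and 2434 at RT and 1898, 2031 and 1901 after cold exposure. The cold libraries lay below the RT libraries in both genotypes, and the spread within groups was small, with coefficients of variation from 3.39% to 5.93%. The log2 fold change was -0.44 in Atf4WT (SE 0.068, adjusted p = 0.00106 by limma) and -0.26 in Atf4AKO iWAT (SE 0.068, adjusted p = 0.0169 by limma). The difference between the genotypes in this response was 0.17 (95% confidence interval -0.04 to 0.39, adjusted p = 0.854 by limma). In Atf4AKO iWAT the adjusted p was 0.051 without RT replicate 2 and 0.0508 without cold replicate 2 by limma. The 4 mannose 6-phosphate sorting genes of the pathway list were M6pr, Gnptab, Gnptg and Nagpa, which act in the same lysosomal route. Like Igf2r, they had no call in any comparison. With cold, 21.2% and 17.2% of all tested genes passed in Atf4WT and Atf4AKO iWAT.

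Igf1r, the signaling receptor, was at 543 to 620 normalized counts in Atf4WT iWAT at RT and at 514 to 553 after cold exposure. In Atf4AKO iWAT it was at 450 to 524 at RT and at 364 to 542 after cold exposure, with overlap in both genotypes. Its log2 fold changes with cold were -0.09 (95% confidence interval -0.39 to 0.22) and -0.10 (-0.41 to 0.20).

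The ligand Igf1 was at 7550, 6320 and 6353 normalized counts in Atf4WT iWAT at RT and at 7290, 4589 and 5923 after cold exposure. In Atf4AKO iWAT it was at 9779, 7554 and 6052 at RT and at 7547, 5698 and 6506 after cold exposure. The groups overlapped, and the log2 fold changes were -0.20 (95% confidence interval -0.63 to 0.23) and -0.23 (-0.65 to 0.20), intervals that reach just beyond a 1.5-fold decrease.

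**Figure D2:**
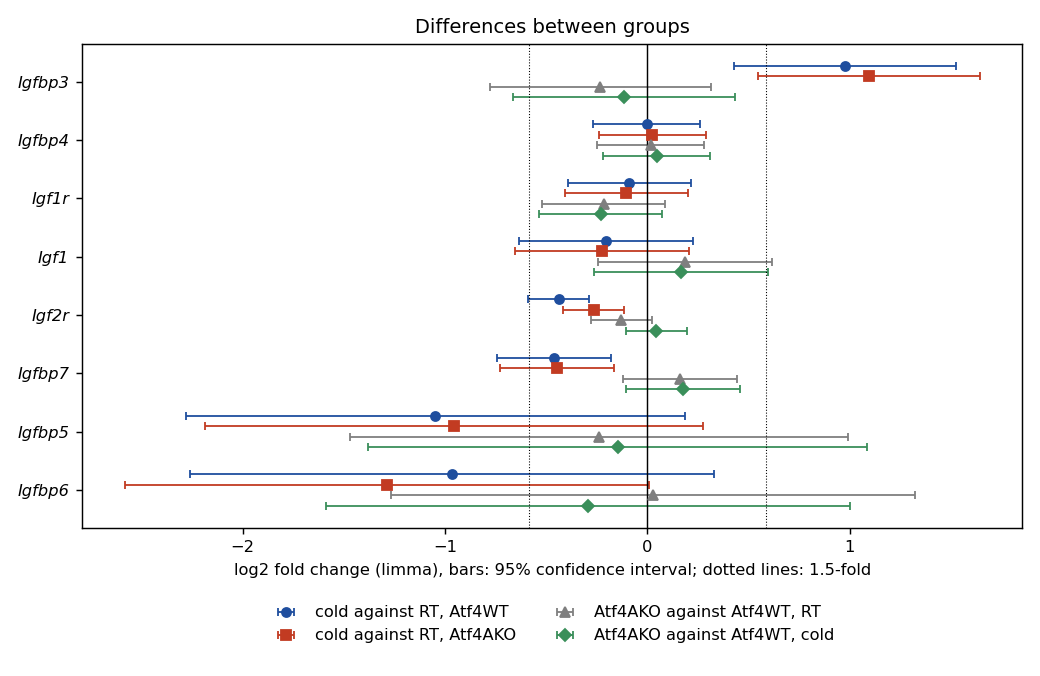
Log2 fold changes by limma (horizontal axis) of the 8 genes for cold against RT in each genotype and for Atf4AKO against Atf4WT at each temperature, with 95% confidence intervals as bars and 1.5-fold changes as dotted lines. The cold responses of Igfbp3 are 0.98 and 1.10, and the intervals of Igfbp5 and Igfbp6 are the widest.

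Igfbp5, which encodes a binding protein that also attaches to extracellular matrix, was at 15929, 14317 and 19406 normalized counts in Atf4WT iWAT at RT and at 13818, 3579 and 10135 after cold exposure. In Atf4AKO iWAT it was at 13771, 11750 and 16661 at RT and at 10079, 2779 and 13197 after cold exposure. Igfbp6, which encodes a binding protein that prefers IGF2, was at 3997, 3951 and 4520 in Atf4WT iWAT at RT and at 4373, 959 and 2277 after cold exposure. In Atf4AKO iWAT it was at 4767, 3249 and 4875 at RT and at 2563, 641 and 3157 after cold exposure. For both genes replicate 1 of each cold group was the lowest library by far. Its log2 difference from the mean of the other 2 cold libraries of its group was -1.72 in Atf4WT and -2.05 in Atf4AKO iWAT for Igfbp5, and -1.72 and -2.15 for Igfbp6. The other 6 members differed by -0.52 (Igf1 in Atf4WT iWAT) to 0.14 in the same libraries. The 10th percentile of all tested genes there was at -0.51 in Atf4WT and -0.80 in Atf4AKO iWAT, so Igf1 in Atf4WT lay just below it.

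The log2 fold change of Igfbp5 with cold was -1.05 in Atf4WT (SE 0.56, adjusted p = 0.176 by limma) and -0.96 in Atf4AKO iWAT (SE 0.56, adjusted p = 0.231 by limma). That of Igfbp6 was -0.97 (SE 0.59, adjusted p = 0.233 by limma) and -1.29 (SE 0.59, adjusted p = 0.130 by limma). None of these 4 passed the threshold in this fit. With the replicate number as a block, given at the end, all 4 were called, though the labels state no pairing. Without replicate 1 of both cold groups the values were nearer to 0, at -0.47 and -0.27 for Igfbp5 and at -0.39 and -0.57 for Igfbp6. Leaving out another cold library gave calls. Without Atf4WT cold replicate 0 both genes were called in Atf4WT iWAT (-1.45 and -1.49), without Atf4AKO cold replicate 2 both were called in Atf4AKO iWAT (-1.40 and -1.72), and without Atf4AKO cold replicate 0 Igfbp6 was called there (-1.57).

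The markers of fibroblasts and adipose progenitors moved with Igfbp5 and Igfbp6. All 12 markers of this list, which include the collagen gene Col3a1 and the proteoglycan gene Dcn, lay lower in replicate 1 of each cold group than in the mean of its other 2 libraries, with median log2 differences of -1.27 in Atf4WT and -1.58 in Atf4AKO iWAT. The 9 listed macrophage markers were all lower as well, with medians of -1.46 and -2.48, while the medians of the 9 endothelial markers were 0.33 and 0.08. Some other lists were low in the Atf4AKO library only. In Atf4WT and Atf4AKO iWAT the B cell medians were 0.25 and -1.35 and the T cell medians 1.39 and -0.66. Those of mural cells were 0.16 and -0.24, and those of Schwann cells -0.07 and -0.35. Skeletal muscle medians were -4.28 and 4.37. Those of white adipocytes were 0.10 and 0.32, and those of thermogenic adipocytes -0.08 and 0.52. The mean log2 value of the fibroblast and progenitor list was 12.32 to 12.91 in the 6 RT libraries, 12.27, 10.56 and 11.83 in the Atf4WT cold libraries and 11.84, 10.40 and 12.08 in the Atf4AKO cold libraries. The summed level of these markers was 134865 to 201305 normalized counts at RT and 35860 to 97368 after cold exposure, and 7 of 12 passed the threshold as lower with cold in each genotype, with medians of -1.10 and -1.18. With this mean log2 value as a covariate, added after the data were seen, the log2 differences with cold were 0.28 and 0.50 for Igfbp5. They were 0.43 and 0.25 for Igfbp6, with no call for either gene. Those of Igfbp3 were 1.29 and 1.44 (adjusted p = 0.00926 and 0.00923 by limma). The covariate itself fell with cold, so this fit removes the cold response of any gene that follows it. It cannot separate a response to cold from a change shared with the list. In RNA of whole tissue, fewer cells of a type and less RNA per cell cannot be told apart.

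**Figure D3:**
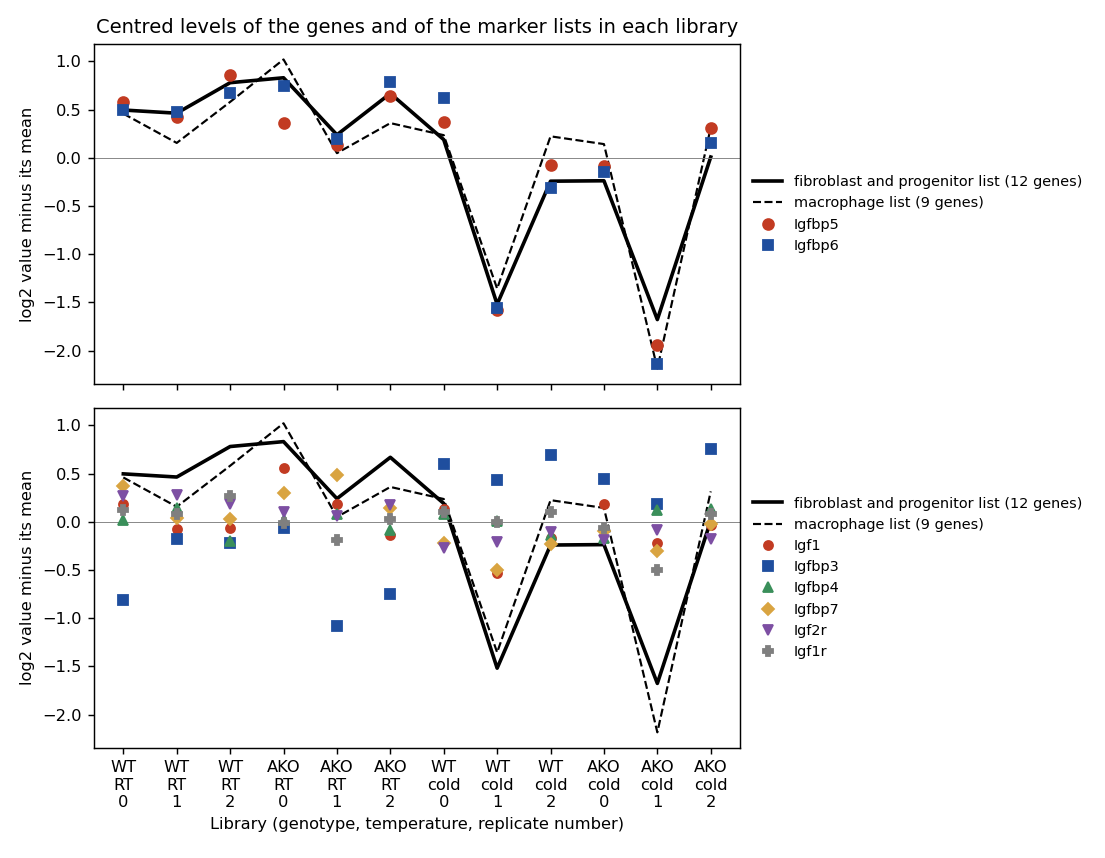
Log2 values of the 8 genes minus their own mean over the 12 libraries (points), with the same for the mean of the fibroblast and progenitor list (solid line) and of the macrophage list (dashed line), by library. Igfbp5 and Igfbp6 (upper panel) lie near the solid line and dip with it in replicate 1 of each cold group, and the other 6 genes (lower panel) do not follow it to that depth.

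The likeness of the profiles was measured as the root mean square difference of log2 values centred on their mean over the 12 libraries, among the 11841 genes that averaged 50 or more normalized counts. For Igfbp3 the closest genes were Rrp12 (0.276) and Inmt (0.281), against a median of 0.642 over all genes. The closest gene to Igfbp5 was Igfbp6 (0.184, against a median of 0.869), and the closest genes to Igfbp6 were Timp2 (0.182), an inhibitor of matrix proteases, and Igfbp5 (against a median of 0.933). The last 2 comparisons were chosen after the values were seen. These differences describe 12 libraries that share 4 groups.

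The make-up of the 5 binding protein transcripts was described as the share of each in their sum per kilobase of exons. The sum was 19791 ± 923 normalized counts per kilobase in Atf4WT iWAT at RT, 15095 ± 3093 after cold exposure, and 20475 ± 391 and 15541 ± 2771 in Atf4AKO iWAT (SD, n = 3). Igfbp3 made up 1.52% ± 0.40 at RT and 3.90% ± 0.60 after cold exposure in Atf4WT iWAT, and 1.27% ± 0.45 and 3.46% ± 0.11 in Atf4AKO iWAT. Igfbp7 held the largest share in each group, with means between 40.1% and 44.9%. Igfbp4 went from 24.1% ± 3.1 to 32.2% ± 6.8 in Atf4WT and from 23.5% ± 1.1 to 32.3% ± 7.6 in Atf4AKO iWAT, although its own level hardly moved, since the sum was lower. The shares carry the spread of Igfbp5 and Igfbp6 and were not tested.

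Between the genotypes none of the 8 members passed the threshold. After cold exposure 0 of 8 passed in limma, edgeR or DESeq2, against 6.40% of all tested genes in limma, and 0 of 8 had an unadjusted p-value under 0.05 in limma (11.7% of all genes). At RT 0 of 8 passed in these tools as well, against 0.463% of all genes, and 0 had an unadjusted p-value under 0.05 in limma (1.53% of all genes). The interaction, the cold response of Atf4AKO minus that of Atf4WT iWAT, also passed for 0 of 8 members in the 3 tools, against 4.63% of all genes, with 0 members and 6.92% of all genes at an unadjusted p-value under 0.05 in limma. The 95% confidence intervals of Igf1r, Igf2r, Igfbp4 and Igfbp7 lay inside a 1.5-fold change at both temperatures. Those of Igfbp5 ran from -1.47 to 0.99 at RT and from -1.38 to 1.09 after cold exposure on the log2 scale, and those of Igfbp6 from -1.27 to 1.32 and from -1.59 to 1.00, so that a 2-fold difference of these 2 genes was not detectable. The 3 Atf4AKO libraries at RT lay below the 3 Atf4WT libraries for Igf2r (log2 difference -0.13) and Igf1r (-0.22), with an adjusted p of 0.9999 for each by limma, and 6.30% of all genes did not overlap in this comparison.

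The other genes of the IGF pathway came from a list of 59 genes with their roles, of which 53 were listed and 52 tested. With cold 4 were higher and 6 lower of 52 in Atf4WT iWAT, and 2 were higher and 5 lower of 52 in Atf4AKO iWAT, where 21.2% and 17.2% of all tested genes passed. The adaptor gene Grb14, whose product restrains the insulin receptor, fell most. It was at 1826, 1584 and 1645 normalized counts in Atf4WT iWAT at RT and at 198, 240 and 221 after cold exposure, and at 1634, 1417 and 891 against 367, 329 and 200 in Atf4AKO iWAT. The groups were far apart, with log2 fold changes of -2.94 (SE 0.24, adjusted p = 4.01e-05 by limma) and -2.14 (SE 0.24, adjusted p = 0.00023 by limma). The related adaptor gene Grb10 had log2 fold changes of -0.19 and -0.11, which did not pass.

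Of the binding protein proteases, Htra1 fell in both genotypes, from 5888 ± 759 to 2911 ± 548 normalized counts in Atf4WT and from 5882 ± 712 to 3113 ± 406 in Atf4AKO iWAT (SD, n = 3). The log2 fold changes were -1.02 (adjusted p = 0.000866 by limma) and -0.92 (adjusted p = 0.00187 by limma). Htra3 fell by 0.92 on the log2 scale in Atf4WT iWAT and was at -0.56 in Atf4AKO iWAT, under the fold limit with an adjusted p of 0.0323 by limma. Pappa was near the lower limit of the tested genes, at 8.34 to 15.6 normalized counts in Atf4WT iWAT at RT, and passed as higher in Atf4AKO iWAT only at the unadjusted p-value (log2 fold change 0.95, adjusted p = 0.061 by limma). Its inhibitor gene Stc2 had log2 fold changes of -0.56 and -0.22 and did not pass.

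Igf2 had log2 fold changes with cold of -0.64 and -0.04, Ghr, the growth hormone receptor, of -0.23 and -0.04, Irs1 of -0.37 and -0.11 and Irs2 of 0.07 and 0.13, none of which passed. Insr, the insulin receptor, rose in Atf4AKO iWAT by 0.40 on the log2 scale (adjusted p = 0.00233 by limma), under the fold limit, and was at 0.15 in Atf4WT iWAT. Socs2, an inhibitor of growth hormone signaling, rose in Atf4WT iWAT from 198 ± 13.5 to 395 ± 105 normalized counts (log2 fold change 0.96, adjusted p = 0.00386 by limma) and was at 0.37 in Atf4AKO iWAT. Igfals, the acid-labile subunit that joins IGFBP3 and IGF in the blood, and named here after its values were seen, was called lower in Atf4WT iWAT (-0.71, adjusted p = 0.0667 by limma). Insrr was called lower in Atf4AKO iWAT (-1.93, adjusted p = 0.0842 by limma), and Igf2bp3, an RNA binding protein gene, was called higher in Atf4WT iWAT (1.01, adjusted p = 0.0162 by limma).

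In the relay downstream of the receptors Mtor rose from 1742 ± 240.2 to 2805 ± 65.5 normalized counts in Atf4WT iWAT and from 1742 ± 214 to 3152 ± 189 in Atf4AKO iWAT. The log2 fold changes were 0.70 (adjusted p = 0.00118 by limma) and 0.86 (adjusted p = 0.000458 by limma). Akt1 rose by 0.62 in Atf4WT and by 0.51 in Atf4AKO iWAT, the latter under the fold limit with an adjusted p of 0.000454 by limma. Eif4ebp1 is the gene of a translation repressor that mTOR holds in check and a target of ATF4. It fell by 0.71 and 0.72 on the log2 scale in Atf4WT and Atf4AKO iWAT. Its difference between Atf4AKO and Atf4WT was 0.063 after cold exposure and 0.077 at RT, and neither passed. Foxo3, a transcription factor gene restrained by AKT, fell by 0.94 in Atf4AKO iWAT (adjusted p = 0.0252 by limma) and was called lower in Atf4WT iWAT at -0.66 (adjusted p = 0.083 by limma).

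**Figure D4:**
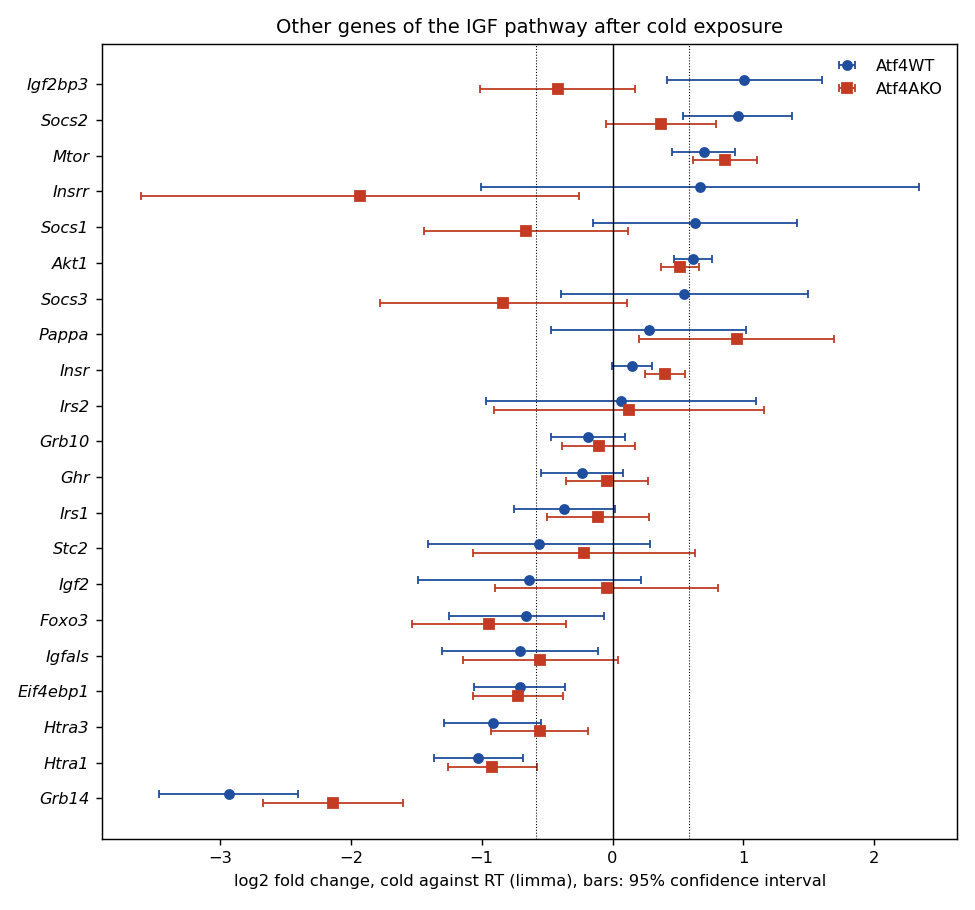
Log2 fold changes by limma with cold (horizontal axis) of the named pathway genes in Atf4WT (circles) and Atf4AKO iWAT (squares), with 95% confidence intervals as bars and 1.5-fold changes as dotted lines. Grb14 is the lowest in both genotypes at -2.94 and -2.14, and the genotypes lie on opposite sides of 0 for Igf2bp3, Insrr, Socs1 and Socs3.

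Between the genotypes 3 pathway genes were called lower in Atf4AKO iWAT after cold exposure and 1 was called higher at RT, none at an adjusted p-value under 0.05. Of all genes 6.04% were called lower after cold exposure and 0.179% higher at RT, and 0.0298% and 0.00746% had an adjusted p-value under 0.05. Socs1 was at 81.2, 91.8 and 137 normalized counts in Atf4WT and at 64.8, 44.2 and 33.3 in Atf4AKO iWAT after cold exposure (log2 fold change -1.12, adjusted p = 0.190 by limma). Socs3 was at 246, 220 and 461 against 170, 86.2 and 131 (-1.22, adjusted p = 0.251 by limma). Both encode inhibitors of cytokine signaling. Insrr was at 9.25, 39.1 and 72.5 against 5.31, 12.5 and 4.30 (-2.02, adjusted p = 0.295 by limma), with overlap. With the lymphocyte score as a covariate 0 of the 3 passed by limma. The B cell markers of this score had mean log2 values of 8.37 to 10.26 in Atf4WT and 3.02 to 4.63 in Atf4AKO cold libraries. Since the score follows the genotypes there, this fit cannot separate a genotype difference from one shared with the lymphocyte markers. Igf2bp3 was at 15.6, 15.4 and 23.2 in Atf4WT and at 35.3, 32.9 and 29.7 in Atf4AKO iWAT at RT (0.84, adjusted p = 0.9999 by limma). Insr was higher in Atf4AKO iWAT after cold exposure by 0.24, under the fold limit (adjusted p = 0.146 by limma).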

How the data were processed

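Polyadenylated RNA of iWAT was sequenced in 12 libraries, 3 biological replicates in each of 4 groups. The authors mapped reads to mm10 with STAR, counted them with featureCounts and deposited a normalized signal, the reads of each gene divided by a DESeq2 size factor. Tool versions are not given in the sources used here. Whole reads came back for 100% of values (tolerance 0.01 reads) when 1 read was taken as the lowest value in a library, and 755 of 14159 genes fell under a mean of 10 normalized counts. limma 3.58.1 (R 4.3.3, eBayes with trend) was fitted to log2(normalized count + 1) with 4 group means over all 12 libraries, so fold changes of low genes are understated. It gave cold against RT, Atf4AKO against Atf4WT and their interaction. edgeR 4.0.16 (quasi-likelihood) and DESeq2 1.42.0 on the recovered reads, other pseudocounts, filters and scaling, a replicate block, a lymphocyte score and leaving out each library were alternatives. The fibroblast score and leaving out both cold libraries numbered 1 were added after seeing the data. The scripts were tested on simulated data.

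Genes named are the members, Atf4, pathway genes past the DEG threshold (up to 8 a comparison by smallest p) with 8 fixed ones (Igf2, Ghr, Insr, Irs1, Irs2, Pappa, Stc2 and Grb10), leading markers and the closest profiles. The members and lists were chosen with earlier results of these data known. Whether each library is 1 animal is not stated in the labels, so p-values measure the spread between these samples.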

Additional observations from a re-analysis of the deposited data

Results flagged for a closer look

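The cold responses of the genotypes differed in the interaction term for 5 of 52 pathway genes at a fold over 1.5 and an unadjusted p-value under 0.05, against 4.63% of all tested genes, and for none at an adjusted p-value under 0.05 by limma. For Igf2bp3 the response in Atf4AKO minus that in Atf4WT iWAT was -1.43 on the log2 scale (adjusted p = 0.474 by limma). For Socs1 it was -1.29 (adjusted p = 0.599 by limma), and for Socs3 it was -1.38 (adjusted p = 0.692 by limma). For Insrr it was -2.60 (adjusted p = 0.638 by limma). For Grb14 it was 0.80 (adjusted p = 0.667 by limma), a smaller fall in Atf4AKO iWAT. With the lymphocyte score as a covariate 0 of the 5 passed. The score differed between the genotypes after cold exposure, so this fit cannot tell these responses from a change shared with the lymphocyte markers.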

How the results depend on the processing

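Over 23 alternatives, 33 values of called members kept direction and side of the threshold and 1 did not, that of Igfbp3 in Atf4WT iWAT with the lymphocyte score. Of the uncalled values 601 kept direction and side, 83 changed sign and 10 passed the threshold. Of 8 members 3 were called with cold in Atf4WT iWAT with the replicate block, 0 with the lymphocyte score and 3 at adjusted p under 0.05. In Atf4AKO iWAT 2 were called with 75th percentile scaling (Igfbp6 at -1.35 beside Igfbp3), 3 with the replicate block and 3 at adjusted p under 0.05. Leaving out 1 library each gave 1 to 3 members in Atf4WT (3 without cold replicate 0) and 1 to 3 in Atf4AKO iWAT (2 without cold replicate 0, 3 without cold replicate 2). Of 52 pathway genes, for Atf4AKO against Atf4WT after cold 0 were called with the lymphocyte score, 0 at adjusted p under 0.05 and 2 to 5 without 1 library (5 without Atf4AKO cold replicate 2). At RT 0 were called at a mean of at least 50, 0 at adjusted p under 0.05 and 1 to 2 without 1 library (2 without Atf4WT replicate 2, Atf4AKO replicate 0 or Atf4AKO replicate 1). With cold in Atf4AKO iWAT 12 had an adjusted p under 0.05. The interaction had 0 with the lymphocyte score, 0 at adjusted p under 0.05, 2 without both cold libraries numbered 1 and 1 to 7 without 1 library. It had 1 without Atf4WT RT replicate 1, Atf4WT cold replicate 2 or Atf4AKO RT replicate 2, 2 without Atf4WT RT replicate 0 or Atf4AKO cold replicate 2, and 3 without Atf4AKO cold replicate 0 or 1. The causes of these shifts were not tested.

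Sign changes touched only uncalled log2 values. With the fibroblast score the cold values in Atf4WT and Atf4AKO iWAT were 0.084 and 0.092 for Igf1, 0.15 and 0.16 for Igf1r, 0.28 and 0.50 for Igfbp5, and 0.43 and 0.25 for Igfbp6, that of Igfbp4 in Atf4AKO was -0.040, and the interactions of Igf1 and Igf1r were 0.0080 and 0.0089. With the lymphocyte score Atf4AKO against Atf4WT after cold was 0.011 for Igf1r, 0.32 for Igfbp3, -0.39 for Igfbp4, 0.069 for Igfbp5 and -0.027 for Igfbp7. It gave Igfbp4 -0.0066 at RT, and 0.36 and -0.028 with cold in Atf4WT and Atf4AKO, and interactions of 0.21 for Igf1r, -0.38 for Igfbp4 and -0.18 for Igfbp7. With 75th percentile scaling Igfbp4 was at -0.035 with cold in Atf4AKO and -0.0064 in the interaction, and Igfbp7 at -0.022 in the interaction. The Igf1r interaction was 0.022 in edgeR and 0.0041 in DESeq2. Without both cold libraries numbered 1 Igf1r was at 0.064 and Igfbp4 at -0.020 with cold in Atf4AKO, and their interactions were 0.12 and -0.0031.

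Leaving out 1 library, Atf4AKO against Atf4WT after cold ran from -0.0067 to 0.33 for Igf1, -0.26 to 0.027 for Igfbp3, -0.016 to 0.15 for Igfbp4, -0.72 to 0.54 for Igfbp5 and -0.87 to 0.42 for Igfbp6. At RT it ran from -0.078 to 0.096 for Igfbp4 and -0.076 to 0.22 for Igfbp6. Cold ran from -0.098 to 0.075 for Igfbp4 in Atf4WT, and in Atf4AKO from -0.028 to 0.13 for Igfbp4 and -0.22 to 0.064 for Igf1r. The interaction ran from -0.19 to 0.16 for Igf1, -0.13 to 0.15 for Igf1r, -0.11 to 0.40 for Igfbp3, -0.050 to 0.13 for Igfbp4, -0.48 to 0.78 for Igfbp5, -0.89 to 0.40 for Igfbp6 and -0.097 to 0.10 for Igfbp7. With the replicate number as a block Igfbp5 was called lower with cold at -1.05 and -0.96 and Igfbp6 at -0.97 and -1.29 in Atf4WT and Atf4AKO (adjusted p = 0.0516, 0.0781, 0.0923 and 0.0402 by limma). By their labels the libraries share only a number. Of 18 same-numbered pairs 9 had deviations correlated over 0.1 (-0.19 to 0.39), and 7 correlated best with their own number. The 6 pairs numbered 1 were at 0.18 to 0.39, and each of them correlated best with its own number. What the libraries numbered 1 have in common was not tested.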
